A study of Mus musculus with 18 samples.

Results

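Collecting duct and water channel genes of the mouse kidney were chosen by name: the water channels Aqp1, Aqp2, Aqp3 and Aqp4, the vasopressin receptor Avpr2, the sodium channel subunits Scnn1a, Scnn1b and Scnn1g, the anion exchanger Slc4a1 and the steroid dehydrogenase Hsd11b2. All probe sets whose only gene symbol in the platform annotation was 1 of these 10 names were used. That gave 9 of the 12488 probe sets on the array, for 6 of the 10 genes. They were 103612_at for Aqp2, 93330_at and 161559_i_at for Aqp1, 102704_at and 102703_s_at for Aqp4, 96585_at for Avpr2, 100493_at and 161517_at for Hsd11b2 and 101077_at for Slc4a1. Aqp3 and the 3 sodium channel subunits were not analysed here. Each of the 6 genes passed the filter on low signal through its brightest probe set, so 6 of the 5744 genes tested were members of this group.

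The study measured total kidney RNA of C57 mice, 1 array for each of 18 mice. There were 6 mice labelled Aprt KO (Aprt-/- in the series text) and 6 controls (Aprt+/+) at 7 days of age, and 3 mice labelled Aprt KO and 3 controls at 1 month. The mice came as littermates of matched sex, 1 labelled Aprt KO and 1 control, in 6 pairs at 7 days (3 male, 3 female) and 3 pairs at 1 month (2 male, 1 female). The series text calls the ages newly born and adult, and the sources used here do not say how the allele was made. Aprt salvages adenine, and without it a poorly soluble oxidation product of adenine forms crystals in the kidney; the comparisons ask which genes differ with this condition at each age.

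Principal cells of the collecting duct take up water under the control of vasopressin. The hormone binds the receptor Avpr2, cyclic AMP rises in the cell, and Aqp2 moves to the apical membrane, while Aqp3 and Aqp4 let the water out on the other side. The same cells reabsorb sodium through the channel built from the Scnn1 subunits, under aldosterone, and Hsd11b2 inactivates glucocorticoids there so that the mineralocorticoid receptor can answer to aldosterone. Slc4a1, the chloride-bicarbonate exchanger also called AE1 or band 3, sits in acid-secreting intercalated cells and is a major membrane protein of red blood cells. Aqp1 belongs to the proximal tubule and the thin descending limb rather than to the collecting duct.

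The bases before the start site of 2 of the water channel genes are shown because Aqp2 answers to cyclic AMP and both genes had higher signals at 1 month. They come from RefSeq on build GRCm38.p6, on the plus strand, Aqp2 at chr15:99578806-99579055 and Aqp1 at chr6:55336049-55336298, 250 bases each, ending at the base before the start. Capitals mark matches to the motifs searched.
Aqp2: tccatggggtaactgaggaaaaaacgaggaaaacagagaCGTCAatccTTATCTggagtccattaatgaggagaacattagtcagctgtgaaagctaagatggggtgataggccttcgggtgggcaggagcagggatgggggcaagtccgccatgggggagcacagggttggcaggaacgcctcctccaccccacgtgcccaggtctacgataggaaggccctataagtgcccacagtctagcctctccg
Aqp1: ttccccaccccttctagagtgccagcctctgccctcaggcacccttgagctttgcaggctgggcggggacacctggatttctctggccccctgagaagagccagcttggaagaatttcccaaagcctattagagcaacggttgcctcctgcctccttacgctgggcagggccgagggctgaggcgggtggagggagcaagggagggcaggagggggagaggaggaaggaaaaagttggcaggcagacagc

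The motifs were TGACG, the core of the cyclic AMP response element, TGACGTCA, the full element that contains that core, and AGATAA, bound by GATA factors. Both strands were searched over 250 bases before and 50 bases after each start. Of the 6 measured genes, the windows of 3 were searched, those of Aqp1, Aqp2 and Avpr2. No window of Aqp4, Hsd11b2 or Slc4a1 was searched, and Aqp4 was left out by the search itself. Aqp2 held TGACG on the minus strand, read as CGTCA at bases 40 to 44 of the window, and AGATAA on the minus strand, read as TTATCT at bases 49 to 54. The windows of Aqp1 and Avpr2 held none of these letters. Among 32544 promoter windows of the same length, 20.9% held TGACG, 1.8% held TGACGTCA and 11.2% held AGATAA, and a match is a description of letters, not a binding site.

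Aprt itself was measured by dim probe sets. Its brightest probe set, at percentile 35 of mean signal, read 66.9 ± 34.1 on the 7-day arrays labelled Aprt KO and 115.5 ± 44.3 on the 7-day controls (SD, n = 6 each), and 65.5 ± 18.4 on the 1-month arrays labelled Aprt KO and 107.1 ± 2.9 on the 1-month controls (SD, n = 3 each). On 4 arrays this signal was nearer to the median of the opposite group: the 7-day controls of pairs 1 and 2, the 7-day array labelled Aprt KO of pair 4 and the 1-month array labelled Aprt KO of pair 7. These are called the arrays of mismatched Aprt signal below. All groups are named as labelled, and each direction rests on those labels. The arrays of pair 4 also had a compressed upper range, with maxima of at most 10767 against at least 25718 on the other 16 arrays. Kidney epithelial markers were measured: 18 of 23 listed for the proximal tubule, 11 of 17 for the thick limb and distal tubule and 13 of 15 other collecting duct genes passed the filter.

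At 7 days, Slc4a1 and Hsd11b2 fell in the kidneys labelled Aprt KO to 54.2% and 55.4% of the control mean. Aqp1 and Avpr2 lay lower in 6 of 6 littermate pairs without passing the test that leaves the pairs out. Aqp2 and Aqp4 did not pass in any fit. Of the 6 genes, 2 were called lower and 0 higher at a limma adjusted p under 0.05, where 0.679% of the 5744 genes tested were called lower and 2.54% higher. The median log2 fold change over the 6 genes was -0.38, against -0.02 over all genes tested. In whole-kidney RNA, fewer cells of a type and less RNA per cell cannot be told apart.

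Slc4a1 signal ran from 185.4 over a median of 231.9 to 275.7 on the 6 arrays labelled Aprt KO, and from 320.8 over a median of 389.7 to 628.9 on the 6 controls. The 2 sets of arrays did not overlap, as was so, with the arrays labelled Aprt KO lower, for 0.592% of all genes tested. The log2 fold change, on the scale of log2(signal + 29), was -0.79 (SE 0.11, 95% interval -1.03 to -0.56, limma adjusted p = 0.000211), and each mouse labelled Aprt KO had 43% to 68.4% of the signal of its control littermate. Without the 4 arrays of mismatched Aprt signal, it was -0.84 (limma adjusted p = 0.00283), and without pair 4 it was -0.72 (limma adjusted p = 0.00073).

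Slc4a1 RNA also comes from immature red blood cells, so erythroid markers were set beside it. Of 22 listed erythroid markers 14 had a probe set, 4 passed the filter and none passed the test, with a median log2 fold change of 0.04 and no p under 0.05 before adjustment. Their summed signal ran from 8871 over a median of 20720 to 33939 on the 7-day arrays labelled Aprt KO, and from 7619 over a median of 22116 to 35794 on the 7-day controls. The haemoglobin gene Hba-a1 had a log2 fold change of 0.16 (SE 0.41) and Ank1 of the red cell skeleton 0.19 (SE 0.20). The erythroid factor Gata1 had -0.09 (SE 0.22) and the haem synthesis gene Alas2 -0.31 (SE 0.37). Hba-a1 made up most of this sum, at 20654 ± 8917 on the 7-day arrays labelled Aprt KO and 20227 ± 10199 on the 7-day controls (SD, n = 6 each). The part of red cells in the Slc4a1 difference was not tested. The intercalated cell genes past the filter were 2 of 16 listed, the carbonic anhydrase Car2 (log2 fold change 0.06) and the receptor Kit (-0.08), and neither passed. The defining intercalated cell genes for the proton pump and for pendrin were not among those tested.

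Hsd11b2 signal ran from 604.5 over a median of 919.8 to 985.1 on the 7-day arrays labelled Aprt KO, and from 763.8 over a median of 1735 to 1839 on the 7-day controls. The groups overlapped only through the control of pair 3, which read 763.8 while the other 5 controls read at least 1620.5. The fit gave a log2 fold change of -0.79 (SE 0.17, 95% interval -1.14 to -0.44, limma adjusted p = 0.00863), with 48.3% to 79.2% of the littermate's signal in the 6 pairs. The call was lost without pair 1 (log2 fold change -0.75, limma adjusted p = 0.0647) and without the 4 arrays of mismatched Aprt signal (-0.65, limma adjusted p = 0.204). It was also lost when the dim second probe set of the gene was averaged in (-0.35, limma adjusted p = 0.454), within a range of limma adjusted p from 3.71e-06 to 0.454 over 40 alternatives. Without pair 4 the log2 fold change was -0.77 (limma adjusted p = 0.0452).

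Aqp1, the constitutive water channel of the proximal tubule, read from 1728 over a median of 2378 to 2838 on the 7-day arrays labelled Aprt KO, and from 2078 over a median of 3004 to 4093 on the 7-day controls. The groups overlapped, but every mouse labelled Aprt KO read below its own littermate, at 65.7% to 83.2%. Its fitted log2 fold change was -0.41 (SE 0.15, 95% interval -0.72 to -0.094, limma adjusted p = 0.223). With the litter pair as a block the same difference passed (limma adjusted p = 0.000901), and it passed with the pair as a random effect (limma adjusted p = 0.00477). Without the 4 arrays of mismatched Aprt signal it was -0.15 (limma adjusted p = 0.882), the highest adjusted p over its 40 alternatives.

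Avpr2, the vasopressin receptor, read from 139.2 over a median of 209.6 to 318.9 on the 7-day arrays labelled Aprt KO, and from 238.8 over a median of 262.8 to 372.6 on the 7-day controls. Of the 6 arrays labelled Aprt KO, 5 lay below every control, and the exception came from pair 4, whose control was the highest of its group. The fitted log2 change was -0.35 (SE 0.15, 95% interval -0.67 to -0.038, limma adjusted p = 0.359), and the mice labelled Aprt KO had 51.9% to 89.9% of their littermates' signal. It passed with the pair as a random effect (limma adjusted p = 0.0388) but not as a fixed block (limma adjusted p = 0.053), within a range from 0.0388 to 0.663 over 39 alternatives.

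Aqp2, the water channel that vasopressin controls, read from 1747 over a median of 2703 to 4592 on the 7-day arrays labelled Aprt KO, and from 2165 over a median of 3105 to 5434 on the 7-day controls. The groups overlapped widely, and 5 of 6 mice labelled Aprt KO read below their littermates, at 68.8% to 113.8% over the 6 pairs. The log2 fold change was -0.17 (SE 0.17, 95% interval -0.53 to 0.19, limma adjusted p = 0.916). Aqp4 (102704_at), a basolateral water channel, read from 440.0 over a median of 519.5 to 673.2 on the 7-day arrays labelled Aprt KO, and from 440.6 over a median of 619.7 to 789.4 on the 7-day controls. Its log2 fold change was -0.16 (SE 0.13, 95% interval -0.43 to 0.12, limma adjusted p = 0.866), with 4 of 6 mice labelled Aprt KO below their littermates. For both genes the interval holds 0 as well as a moderate fall.

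**Figure D1:**
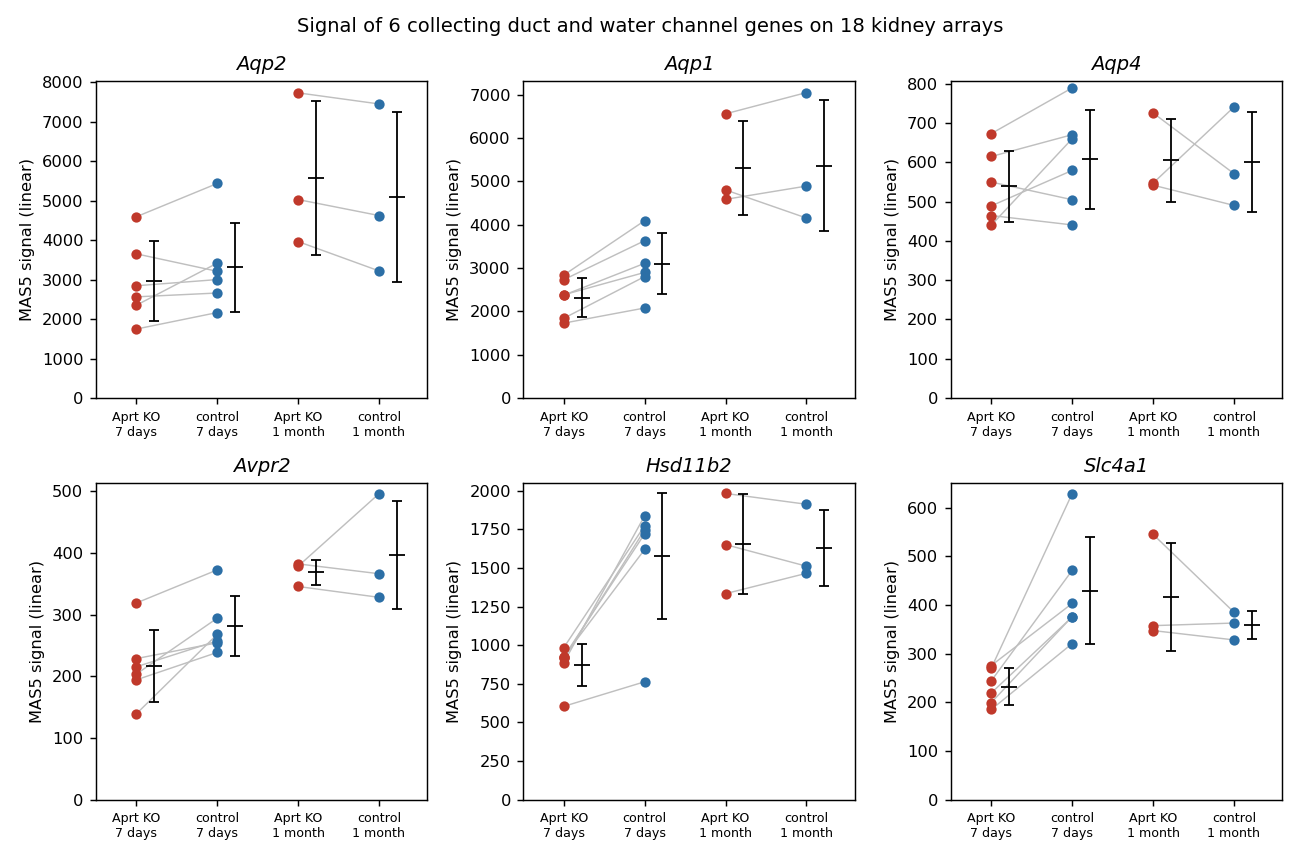
Deposited MAS5 signal (linear, vertical axis) of the brightest probe set of each of 6 genes on 18 arrays, by group (horizontal axis, labelled Aprt KO left of control at each age); points are mice, grey lines join littermates, and bars give mean and SD. At 7 days the Slc4a1 points of the mice labelled Aprt KO end at 275.7, below the lowest control at 320.8, while at 1 month the groups overlap for each of the 6 genes.

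The other 3 probe sets were dimmer. That of Hsd11b2 had a mean signal of 27.1 at the 16.9 percentile, below the filter, and a log2 fold change of 0.10 (SE 0.25) at 7 days. That of Aqp1 was also below the filter, with a mean signal of 48.3 and a log2 fold change of -0.14 (SE 0.26). The second probe set of Aqp4 passed the filter, with a mean signal of 229.1 and a log2 fold change of -0.11 (SE 0.21), the same sign as the brighter one. None of the 3 was called in any of the 5 comparisons in a limma fit over all 12422 probe sets that were not controls.

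Slc4a1 and Hsd11b2 were also set against Aqp2 within each array, a comparison chosen after the values were seen. Relative to Aqp2, log2 Slc4a1 signal was -3.46 ± 0.30 on the 7-day arrays labelled Aprt KO and -2.84 ± 0.21 on the 7-day controls (SD, n = 6 each), a difference of -0.62 with the same sign in 6 of 6 pairs. In an exact two-sided permutation test over 924 regroupings its p was 0.00649, or 0.0325 after Benjamini-Hochberg adjustment over the 5 genes compared with Aqp2. For Hsd11b2 the difference was also -0.62 in 6 of 6 pairs (exact permutation p = 0.0281, adjusted 0.0703), and it was -0.18 when its dim probe set was averaged in. Aqp1 (-0.24), Avpr2 (-0.18) and Aqp4 (0.01) did not pass (exact permutation p = 0.435, 0.433 and 0.976), and the smallest p this test can give is 0.00216. With labels exchanged only within the 6 litter pairs, Slc4a1 and Hsd11b2 both had an exact permutation p of 0.0312, or 0.0781 after adjustment over the 5 genes. The unadjusted p is the smallest that 64 exchanges can give. With the values of the other genes, Slc4a1 could not reach an adjusted p under 0.05 in this test. It therefore cannot decide whether the pass of Slc4a1 holds within pairs.

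At 1 month none of the 6 genes was called between the kidneys labelled Aprt KO and their controls, and none had a limma p under 0.05 before adjustment. Over all genes tested, 0.296% were called higher and 0.0174% lower. The median log2 fold change over the 6 genes was 0.02, against 0.00 over all genes tested. With 3 mice a group, the intervals of these differences reached from -0.53 at the lowest to 0.66 at the highest.

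Slc4a1 read 545.1, 357.6 and 347.5 on the 1-month arrays labelled Aprt KO, against 385.2, 362.9 and 328.3 on their littermate controls in the same pair order. The female pair held the highest value of each group, and the others lay close together. This gave a log2 fold change of 0.18 (SE 0.16, 95% interval -0.16 to 0.51, limma adjusted p = 0.9996). Hsd11b2 read 1983, 1334 and 1652 on the 1-month arrays labelled Aprt KO, against 1913, 1466 and 1512 on the controls. These sets overlapped, with a log2 fold change of 0.01 (SE 0.23, 95% interval -0.48 to 0.51).

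Aqp2 read 7730, 3964 and 5028 on the 1-month arrays labelled Aprt KO, against 7449, 3221 and 4623 on the controls. Each mouse labelled Aprt KO lay above its littermate, at 103.8% to 123.1%, while the spread between litters was far wider. On the log2 scale the fitted change was 0.16 (SE 0.24, 95% interval -0.35 to 0.66). Aqp1 read 6558, 4584 and 4802 on the 1-month arrays labelled Aprt KO, against 7049, 4891 and 4153 on the controls, a log2 fold change of 0.00 (SE 0.21). Avpr2 read 378.5, 345.7 and 382.3 on the 1-month arrays labelled Aprt KO, against 496, 328.1 and 366.4 on the controls, a log2 fold change of -0.08 (SE 0.21). Aqp4 read 546.9, 541.8 and 725.8 on the 1-month arrays labelled Aprt KO, against 740.7, 490.4 and 571.3 on the controls, a log2 fold change of 0.02 (SE 0.19). In all 3 genes the groups overlapped and the pairs had mixed signs.

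**Figure D2:**
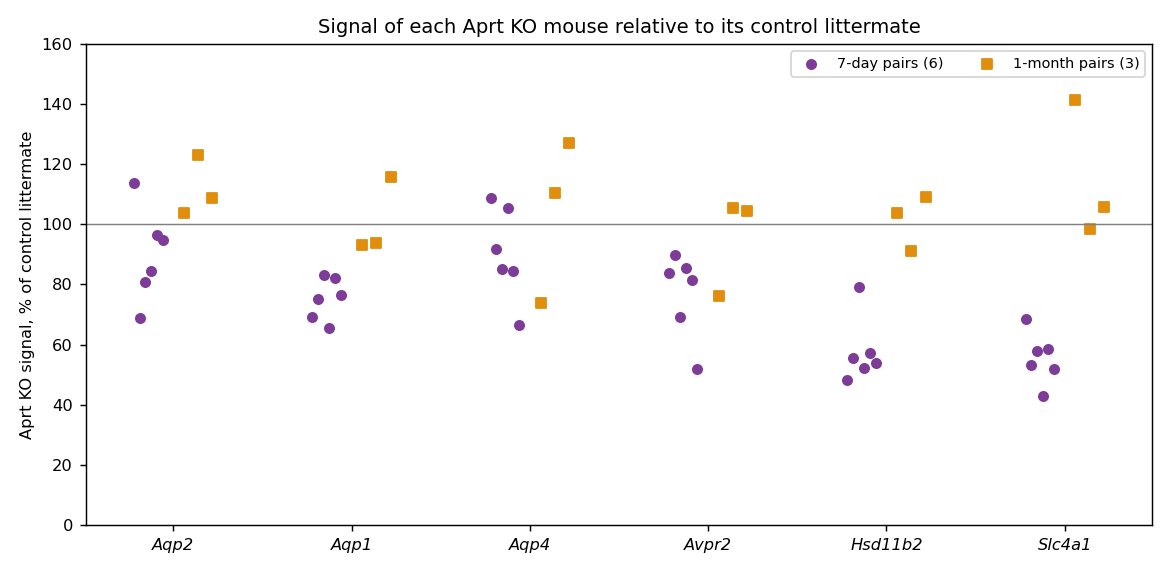
Signal of each mouse labelled Aprt KO as a percentage of its control littermate (vertical axis, linear) for 6 genes (horizontal axis), with circles for 6 pairs at 7 days and squares for 3 pairs at 1 month; the line marks 100%. For Slc4a1 the 7-day pairs span 43% to 68.4% and the 1-month pairs 98.5% to 141.5%, and for Hsd11b2 48.3% to 79.2% and 91% to 109.2%.

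The genotype-by-age interaction, the 1-month log2 fold change minus the 7-day one, tested whether the difference itself depended on age. Slc4a1 had an interaction of 0.97 (SE 0.19, 95% interval 0.56 to 1.37, limma adjusted p = 0.0298) and was 1 of the 6 genes called higher, where 0.139% of all genes tested were called higher and 0.261% lower. This call was fragile: its limma adjusted p ran from 0.00101 to 0.427 over 39 alternatives and was lost in 19. It was lost without the array labelled Aprt KO of pair 1, 2, 6, 7, 8 or 9, without the control of pair 2, 5, 6, 7 or 9, and without both arrays of pair 2, 5, 6, 7, 8 or 9, at limma adjusted p from 0.0511 to 0.261. It was also lost without the sex term (limma adjusted p = 0.197) and without the 4 arrays of mismatched Aprt signal (0.87, limma adjusted p = 0.427). The estimate itself stayed between 0.79 and 1.06.

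Hsd11b2 had an interaction of 0.81 (SE 0.29, 95% interval 0.20 to 1.41, limma adjusted p = 0.501). With the litter pair as a fixed block it passed (limma adjusted p = 0.0127), as it did with the pair as a random effect (limma adjusted p = 0.0197), and over 39 alternatives the limma adjusted p ran from 0.00717 to 0.99996. It also passed without the control of pair 3 and without both arrays of pair 3, the litter with the low values at 7 days. The estimate was 0.28 when the dim second probe set was averaged in, and 0.65 without the 4 arrays of mismatched Aprt signal. The interactions of Aqp1 (0.41), Aqp2 (0.33), Avpr2 (0.28) and Aqp4 (0.17) did not pass, and whether their differences change with age is not settled by these intervals, which all hold 0.

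Between 7 days and 1 month, the vasopressin-dependent water channel Aqp2, the vasopressin receptor Avpr2 and Aqp1 were called higher in control kidneys. Their means were 153.8%, 141.2% and 172.9% of the 7-day mean. The call was lost in 21 of 37 alternatives for Avpr2, 6 of 38 for Aqp2 and 2 of 38 for Aqp1. In the kidneys labelled Aprt KO, these 3 genes were called higher along with Slc4a1 and Hsd11b2. Aqp4 passed in neither. Among controls 3 of the 6 genes were called higher and 0 lower, where 14.8% of all genes tested were called higher and 26.1% lower at 1 month. Among the kidneys labelled Aprt KO it was 5 of 6 higher and 0 lower, where 15% of all genes were called higher and 25.3% lower. Age and any array batch that goes with it cannot be told apart here. The median log2 fold change of all genes was -0.11 in controls and -0.12 in kidneys labelled Aprt KO, and near 0.00 after quantile normalization, so a change of that size is within the choice of scaling. A single gene could move by more, as Aqp2 did in controls, from 0.74 to 0.48.

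In controls, Aqp1 averaged 5364 ± 1505 at 1 month (SD, n = 3) and 3102 ± 699 at 7 days (SD, n = 6), and the ages did not overlap, as for 11.2% of all genes tested with 1 month higher. The fit gave a log2 fold change of 0.87 (SE 0.19, limma adjusted p = 0.00108), and the call was lost without pair 7 (0.57, limma adjusted p = 0.052) and with the dim probe set averaged in (0.34, limma adjusted p = 0.164), the highest of 38 alternatives. Aqp2 averaged 5098 ± 2154 at 1 month (SD, n = 3) and 3315 ± 1128 at 7 days (SD, n = 6), with overlapping arrays.

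The log2 fold change of Aqp2 in controls was 0.74 (SE 0.21, limma adjusted p = 0.00973), with a limma adjusted p from 0.00139 to 0.417 over 38 alternatives. It moved most when pair 7, the only female pair at 1 month, was left out (0.28, limma adjusted p = 0.417). The call was also lost without the control of pair 7 (0.67, limma adjusted p = 0.128), without that of pair 9 (0.62, limma adjusted p = 0.0528), without both arrays of pair 9 (0.62, limma adjusted p = 0.0527), without the sex term (0.59, limma adjusted p = 0.132) and after quantile normalization (0.48, limma adjusted p = 0.11). At 1 month, sex and litter cannot be told apart for pair 7.

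Avpr2 averaged 396.8 ± 88 in 1-month controls (SD, n = 3) and 281 ± 48.5 in 7-day controls (SD, n = 6). Its fitted log2 fold change was 0.50 (SE 0.19, limma adjusted p = 0.0428), a call lost in 21 of 37 alternatives. It was lost without the control of pair 1, 2, 5, 6, 7 or 9, without the array labelled Aprt KO of pair 1, 5 or 8, and without both arrays of pair 1, 2, 3, 5, 7, 8 or 9, at limma adjusted p from 0.0508 to 0.438. Without the control of pair 7 the log2 fold change was 0.32, and without both arrays of that pair 0.29. It was also lost with no filter on low signal, with all probe sets tested, without the sex term, with the pair as a random effect and without the 4 arrays of mismatched Aprt signal, at limma adjusted p from 0.0598 to 0.0734.

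Hsd11b2 averaged 1630.1 ± 246 in 1-month controls (SD, n = 3) and 1578 ± 405 in 7-day controls (SD, n = 6), and its fitted log2 change was 0.15 (SE 0.21, 95% interval -0.28 to 0.59, limma adjusted p = 0.593). Slc4a1 averaged 358.8 ± 28.7 in 1-month controls and 429.3 ± 109 in 7-day controls, a log2 fold change of -0.15 (SE 0.14, 95% interval -0.45 to 0.14, limma adjusted p = 0.417), with a sign that turned after quantile normalization (0.03). Aqp4 averaged 600.8 ± 128 in 1-month controls and 607.5 ± 126 in 7-day controls, a log2 fold change of 0.01 (SE 0.16, 95% interval -0.33 to 0.36, limma adjusted p = 0.962). In these 3 genes the arrays of both ages overlapped.

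In the kidneys labelled Aprt KO, Aqp1 averaged 5315 ± 1082 at 1 month (SD, n = 3) and 2316 ± 453 at 7 days (SD, n = 6), the largest of these 6 changes (log2 fold change 1.29, SE 0.19, limma adjusted p = 2.67e-05), or 0.73 with the dim probe set averaged in. Hsd11b2 averaged 1656 ± 324 at 1 month and 874 ± 136 at 7 days in the same groups (log2 fold change 0.96, SE 0.21, limma adjusted p = 0.00112). Slc4a1 averaged 416.7 ± 111 at 1 month and 232.5 ± 37.2 at 7 days (log2 fold change 0.82, SE 0.14, limma adjusted p = 0.000137). In these 3 genes every 1-month array lay above every 7-day array, as was so for 13.4% of all genes tested.

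Avpr2 averaged 368.8 ± 20.1 at 1 month (SD, n = 3) and 216.7 ± 58.8 at 7 days (SD, n = 6) in the kidneys labelled Aprt KO, again without overlap (log2 fold change 0.77, SE 0.19, limma adjusted p = 0.00302). Aqp2 averaged 5574 ± 1942 at 1 month and 2958 ± 1015 at 7 days with some overlap (log2 fold change 1.06, SE 0.21, limma adjusted p = 0.000576), or 0.66 without pair 7 (limma adjusted p = 0.048). Aqp4 averaged 604.8 ± 105 at 1 month and 538.6 ± 91.3 at 7 days and was not called (log2 fold change 0.18, SE 0.16, limma adjusted p = 0.401). The Hsd11b2 call was lost without the 4 arrays of mismatched Aprt signal (0.92, limma adjusted p = 0.0527) and with its dim probe set averaged in (0.51, limma adjusted p = 0.0556), within a range from 3.78e-06 to 0.0556 over 38 alternatives. The other 4 calls held in every alternative run for them. Both age comparisons use the arrays of the genotype comparisons, and the difference between them is the interaction given above.

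**Figure D3:**
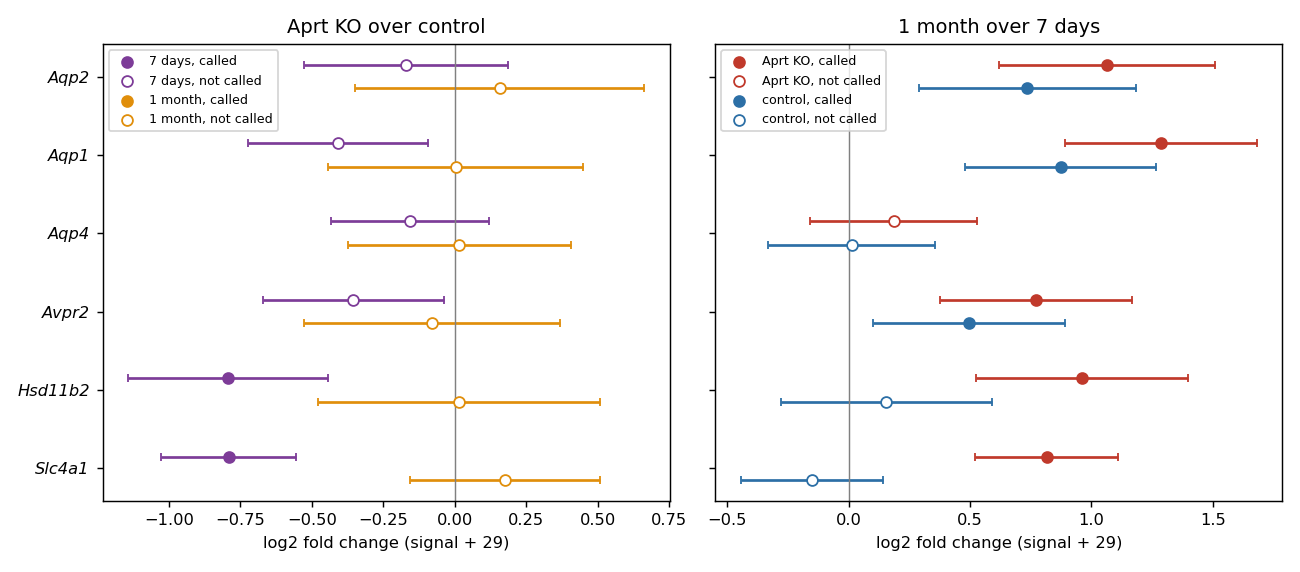
Log2 fold change of signal + 29 (horizontal axis) with 95% limma intervals for 6 genes (vertical axis); left, labelled Aprt KO over control at 7 days and at 1 month, right, 1 month over 7 days in the kidneys labelled Aprt KO and in controls. Filled points were called at an adjusted p under 0.05: at 7 days Slc4a1 and Hsd11b2 lie at -0.79, and with age 5 genes were called in the kidneys labelled Aprt KO and 3 in controls.

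Littermates resembled each other in several of these genes. After the group means were subtracted, the log2 signals of the mouse labelled Aprt KO and of its control littermate were correlated over the 9 pairs, 1 relation for each of the 6 genes. For Aqp1 Pearson's r was 0.913 (exact permutation p = 0.000876, adjusted 0.00267) and Spearman's rho 0.917 (exact permutation p = 0.00131, adjusted 0.00787), and r was 0.923 without the 2 farthest pairs. For each gene these were the 2 pairs whose mouse labelled Aprt KO lay farthest from the median of such mice, whatever its control littermate read. For Aqp2 r was 0.90 (exact permutation p = 0.00121, adjusted 0.00267) and rho 0.80 (exact permutation p = 0.0138, adjusted 0.0415), and r without the 2 farthest pairs was 0.731. Hsd11b2 had an r of 0.898 (exact permutation p = 0.00133, adjusted 0.00267) and a rho of 0.683 (exact permutation p = 0.0503, adjusted 0.0755), but r was 0.492 without the 2 farthest pairs, so this relation rests on those litters.

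Slc4a1 had an r of 0.635 (exact permutation p = 0.0566, adjusted 0.085) and a rho of 0.683 (exact permutation p = 0.0503, adjusted 0.0755), with an r of 0.908 without the 2 farthest pairs. Avpr2 had an r of 0.55 (exact permutation p = 0.15, adjusted 0.18) and a rho of 0.40 (exact permutation p = 0.291, adjusted 0.291), and r was 0.332 without the 2 farthest pairs. Aqp4 had an r of 0.381 (exact permutation p = 0.304, adjusted 0.304) and a rho of 0.433 (exact permutation p = 0.25, adjusted 0.291), and r was 0.149 without the 2 farthest pairs. After adjustment, r therefore passed for Aqp1, Aqp2 and Hsd11b2. The share of all genes that would pass was not computed. Over all genes tested, the fit with the pair as a random effect put the correlation within pairs at 0.567. Resemblance of littermates was thus also present over all genes tested. That fit held sex terms and used another measure than r, so whether these genes resemble each other more than most was not tested. Littermates also shared their sex, which was not subtracted before r was computed. Aqp2 read 7730 in the female labelled Aprt KO and 7449 in its control littermate at 1 month, and 3221 to 5028 in the males of both groups, while at 7 days it read 1747 to 3417 in females and 2844 to 5434 in males. The part of sex in these correlations was not tested, and litter and any shared handling of a pair cannot be told apart.

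The 6 genes did not vary as a block. Over the 18 arrays, with group means subtracted, Aqp2 varied most closely with Slc4a1 (Pearson r = 0.811), followed by Hsd11b2 (0.64) and Avpr2 (0.602). Aqp1 varied most closely with Hsd11b2 (0.773), and Aqp4 ran against Slc4a1 (-0.589). These are descriptions over 18 arrays that share litters and the scaling of each array. Among all other genes tested, the most similar to Aqp2 by the same measure were Stub1 (0.917), Eif3d (0.916) and Maged1 (0.905), and those most similar to Aqp1 were Agt (0.954), Gatd3a (0.952) and Ctsb (0.943). For Hsd11b2 they were Gna12 (0.958), Idh2 (0.949) and Cd2bp2 (0.927), for Slc4a1 Puf60 (0.874), Ptp4a3 (0.871) and Mapkapk2 (0.856), for Avpr2 Cuedc1 (0.905), Armcx2 (0.865) and Rab8a (0.844), and for Aqp4 Sf3b1 (0.892), Kitl (0.879) and Wls (0.826).

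Other genes of the same duct and pathways were counted from lists. At 7 days, 4 of 13 other collecting duct genes rose in the kidneys labelled Aprt KO, 1 fell and 8 did not pass, with a median of -0.13, beside 2.54% of all genes called higher, 0.679% called lower and an all-gene median of -0.02. The 4 that rose were the simple-epithelium keratins Krt19 (log2 fold change 2.06, limma adjusted p = 3.88e-08), Krt18 (1.10, limma adjusted p = 0.00485), Krt8 (0.65, limma adjusted p = 0.0119) and Krt7 (0.56, limma adjusted p = 0.0147), filament proteins that other epithelia make too. The potassium channel Kcnj1, found in the thick limb as well, fell (-0.41, limma adjusted p = 0.0456). Slc4a1 and Hsd11b2 thus moved in the opposite direction to the 4 keratins on these arrays. They had the same sign as 8 of the 13 listed genes, of which Kcnj1 alone was called. In this list 7 genes had a limma p under 0.05 before adjustment, the 4 keratins among them.

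Of 14 vasopressin signalling genes, 1 rose and 0 fell, beside 2.54% of all genes tested called higher and 0.679% called lower. Ptger4, a receptor for prostaglandin E that raises cyclic AMP, had a signal of 431.4 ± 81.5 on the 7-day arrays labelled Aprt KO and 160.1 ± 49.8 on the 7-day controls (SD, n = 6 each; log2 fold change 1.31, limma adjusted p = 0.000211). Of 11 genes of aldosterone and sodium channel regulation none passed, with 1 limma p under 0.05 before adjustment and a median of -0.11. The other aquaporin past the filter, Aqp7, a channel for glycerol and water, had a log2 fold change of 0.03 and did not pass. None of 3 tonicity-responsive and 5 ureteric bud genes passed, and none of these had a limma p under 0.05 before adjustment.

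Neighbouring cell types were read in the same way. Of 11 thick limb and distal tubule markers 3 fell and 0 rose at 7 days, Egf, S100g and Kcnj1, with a median of -0.31. Of 18 proximal tubule markers 1 fell, Mep1b, with a median of -0.19. Over all genes tested, 0.679% were called lower and 2.54% higher, with a median log2 fold change of -0.02. The summed signal of the thick limb and distal tubule list ran from 19196 over a median of 25103 to 28378 on the 7-day arrays labelled Aprt KO, and from 25596 over a median of 30286 to 33957 on the 7-day controls. Fxyd2, which was not called (log2 fold change -0.16), made up the largest part of this sum. It read 10072 ± 2051 on the 7-day arrays labelled Aprt KO and 11185 ± 1869 on the 7-day controls (SD, n = 6 each). No marker of the endothelium (0 of 8, median -0.17), urothelium (0 of 3), skeletal muscle (0 of 5) or adrenal gland (0 of 4, median -0.91) passed in the limma test, with 1, 1, 0 and 0 limma p under 0.05 before adjustment. The part of these lists in the falls of Slc4a1 and Hsd11b2 was not tested.

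**Figure D4:**
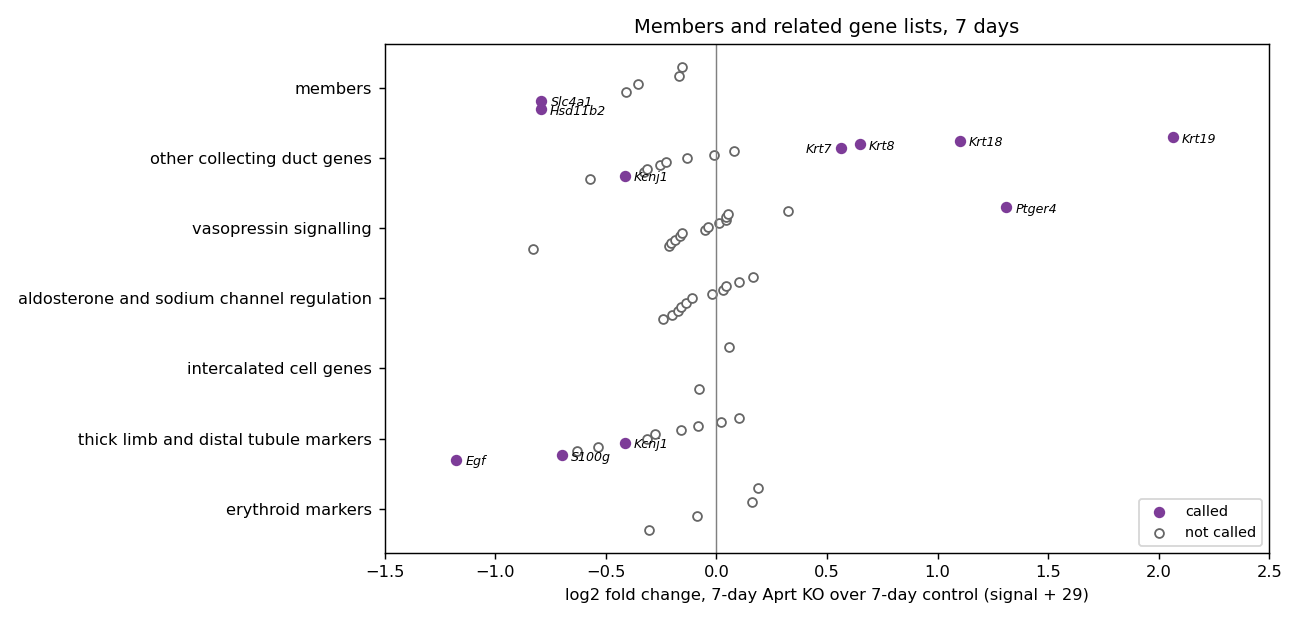
Log2 fold change of signal + 29 at 7 days, labelled Aprt KO over control (horizontal axis), for the 6 members and for genes of 6 related lists (vertical axis; height within a list only separates points); filled points were called and are named. Slc4a1 and Hsd11b2 lie at -0.79, the 4 called keratins between 0.56 and 2.06, Ptger4 at 1.31 and no erythroid marker was called.

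At 1 month the only call among the other collecting duct genes was Krt19 (log2 fold change 1.26, limma adjusted p = 0.0114). No gene of vasopressin signalling or of aldosterone and sodium channel regulation passed, with 1 limma p under 0.05 before adjustment in each list. Over all genes tested at 1 month, 0.296% were called higher and 0.0174% lower. With age, in controls, 2 of 13 other collecting duct genes rose and 9 fell, beside 14.8% and 26.1% of all genes. Those with the smallest p were the sialyltransferase St6gal1 (-1.53), Krt19 (-1.68), Kcnj1 (0.89) and Krt18 (-1.67), with limma adjusted p from 2.34e-08 to 6.78e-05. Aqp2, Avpr2 and Aqp1 were called higher in the same mice. Markers of the proximal tubule, where Aqp1 (0.87) belongs, rose in 13 of 18 cases with a median log2 fold change of 0.93, and thick limb and distal tubule markers in 8 of 11 with a median of 0.83, with none called lower in either list. The 2 other collecting duct genes that rose also belong to the thick limb and distal tubule list and are counted in both. The part of these lists in the rises was not tested.

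Of 14 vasopressin signalling genes 1 rose and 4 fell with age in controls, shares near the 14.8% and 26.1% of all genes tested that were called higher and lower. The prostaglandin receptors went opposite ways: Ptger3, which lowers cyclic AMP, rose by 1.59 and Ptger4 fell by 1.65 on the log2 scale (limma adjusted p = 2.54e-05 and 1.72e-05). The kinase subunit Prkar1a (-0.59) and the vesicle protein Rab11a (-0.63) fell as well, with limma adjusted p of 0.00108 and 0.000438. Of 11 genes of aldosterone and sodium channel regulation 5 rose and 1 fell, beside the same shares of all genes. Hsd11b1, which regenerates active glucocorticoid, rose by 3.05, Prss8, a protease that activates the sodium channel, by 1.08, and the ubiquitin protease Usp2 by 0.75, while the ubiquitin ligase Nedd4 fell by 1.19 on the log2 scale (limma adjusted p from 4.32e-09 to 0.00055). Hsd11b2, the enzyme that runs in the reverse direction to Hsd11b1, did not pass in the same mice.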

How the data were processed

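Kidney RNA was measured on 18 Affymetrix arrays, 1 per mouse. The deposited values are linear intensity signals, and the submitters' processing notes name GCOS and MAS5. Their versions and the scaling target are not known here. Trimmed means were 500.2 to 500.4 on all arrays. The number of arrays, 3 to 6 a group, limits the precision.

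Signals were used as deposited. Genes came from 10833 probe sets with 1 symbol (396 had several, 1193 none, 66 were controls). The brightest probe set stood for its gene, kept at a mean signal of at least 118.6 (the 40th percentile), which left 5744 of 8251 genes. Limma 3.58.1 in R 4.3.3 (lmFit, eBayes with trend) fitted log2(signal + 29), 29 being the rounded 20th percentile, to all arrays with 4 group terms and 1 sex term per age. Tests were two-sided, adjusted by Benjamini-Hochberg over 5744 genes and called under 0.05. This scale understates changes of dim genes. The fit was tested on simulated data with noise drawn independently for each array, which does not cover the resemblance of littermates.

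The labels name littermates, which pairs the samples; deviations correlated at 0.239 to 0.673 within the 9 pairs. The pair as a block was an alternative, among 40, of which 27 left out arrays or pairs. Named genes are the members, at most 4 called genes per list and comparison by smallest p, the 3 genes most like each member, and Aprt. Hba-a1, Ank1, Gata1, Alas2, Car2, Kit, Aqp7 and Fxyd2 are list members not called at 7 days and named after their values were seen. Members, lists and tests were chosen with earlier results of these data known. Figures were drawn with matplotlib 3.10.9.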

Additional observations from a re-analysis of the deposited data

Results flagged for a closer look

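In pair 3 both littermates had low Hsd11b2 signal at 7 days. The mouse labelled Aprt KO read 604.5, below the next of its group at 887.9, and its control littermate read 763.8, below the next control at 1620.5. Each gap exceeded Dixon's 95% critical value for 6 arrays, at 74.5% and 79.7% of its group's range. Of 18 groups of probe set signals tested this way, these 2 stood apart, and chance alone sets apart about 1 in 20.

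The difference between Slc4a1 signal in kidneys labelled Aprt KO and in controls itself differed between 1 month and 7 days, with an interaction of 0.97 on the log2 scale (limma adjusted p = 0.0298). It lost its call in 19 of 39 alternatives, as given above.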

How the results depend on the processing

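Of 1165 values of the 6 genes recomputed under the alternatives, 1105 kept their side of the threshold and their direction, 53 lost a call, 7 gained one and no called value turned sign, while 36 uncalled ones did. Of the 6 genes, 2 were called at 7 days, 0 at 1 month, 1 in the interaction, 3 with age in controls and 5 with age in kidneys labelled Aprt KO. The 7-day count was 3 with the litter pair as a fixed replicate block, 4 with it as a random effect, and 1 when probe sets were averaged or the 4 arrays with Aprt against the label were left out. The interaction count was 2 under either form of the pair, and 0 without the sex term or without those 4 arrays. The count with age in controls was 1 without the sex term. Leaving out single arrays or pairs gave 1 to 2 at 7 days, 0 to 2 in the interaction and 0 to 3 with age in controls. Over all genes, the 7-day calls numbered 185, 500 with the fixed block, 522 with the random effect, 97 without the 4 arrays, 110 without pair 1, 112 without pair 5 and 123 without pair 2. Interaction calls numbered 23, 93 with the fixed block, 142 with the random effect, 7 without the 4 arrays and 8 to 37 when single arrays or pairs were left out. The 1-month calls over all genes numbered 18, 28 with a pseudocount of 1, 7 with a pseudocount of 112, 9 when probe sets were averaged, 7 with all probe sets tested, 79 with the fixed block, 117 with the random effect, 1 with each age fitted alone and 3 without the 4 arrays, and as few as 4 when single arrays or pairs were left out. Age calls over all genes were 2348 in controls, or 1431 without the control of pair 7, and 2313 in kidneys labelled Aprt KO, or 1413 without that array of pair 7 and 1226 without the 4 arrays. The block changed no other call of the 6 genes than those given above. It could not be fitted for age, since each pair lies within 1 age, and the filter at the 60th percentile gave no value for Avpr2.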
